A study of Mus musculus with 10 samples.

Results

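The TGF-beta genes described here are 10: the ligands Tgfb1, Tgfb2 and Tgfb3, the receptors Tgfbr1, Tgfbr2 and Tgfbr3, and the latent TGF-beta binding proteins Ltbp1, Ltbp2, Ltbp3 and Ltbp4. They were found by Ensembl identifier, and all 10 were among the 40620 genes counted and among the 20808 genes tested. RNA-seq had been performed on MC3T3-E1 cells, a mouse calvarial pre-osteoblast line held as a single subclone, at 5 stages with 2 replicates (A and B) each. Subconfluent and confluent (day 0) cells were kept in αMEM with 10% serum. The cells at 24 h, 14 d and 21 d were kept in the same base medium to which β-glycerophosphate (10 mM) and ascorbic acid (50 µg/ml) had been added. No genotype or inhibitor differed between the groups. Time, cell density and medium changed together after confluence, so these cannot be told apart.

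TGF-beta is made as a precursor whose propeptide stays bound to the ligand and keeps it latent. Latent binding proteins are large matrix proteins that tether this latent complex to fibrillin and fibronectin, from which integrins, proteases and mechanical force can release it. Free ligand binds the type II receptor, which activates the type I receptor and then Smad2 and Smad3, and bone matrix is a known store of latent TGF-beta. Levels are given as RPKM, read counts divided by gene length and by the size of the library, so that genes of different length can be set side by side. The lengths used were below the merged exon lengths of GENCODE vM21 for all of these genes but Ltbp2 (9045 against 8184 bases). They differed most for Tgfb1 (2551 against 5042), Tgfbr2 (4777 against 8187) and Ltbp3 (5326 against 9069). The order of levels, and the sums and shares by RPKM, depend on these lengths. Fold changes are on the log2 scale with their standard error (SE), from edgeR's quasi-likelihood test on the counts of all 10 samples with Benjamini-Hochberg adjustment over all genes tested. A gene is said to have risen or fallen at an adjusted p under 0.05, and is called at more than 2-fold in addition. In bulk RNA, fewer cells of a type and less RNA per cell cannot be told apart.

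Counts summed over all genes to between 44736156 and 162939333 per sample, 1.44 to 1.60 times the read number behind the RPKM values. The lowest count of any of the 10 genes was 147, for Ltbp2 at 21 d. Osteoblast markers ranged from 5325 summed RPKM (24 h replicate A) to 16520 (14 d replicate A). At 21 d against subconfluent cells 7 of 9 were called higher and 0 lower, beside 16.3% and 11.3% of all genes. Col1a1 made up most of the sum in subconfluent cells (5655 of 6097 RPKM in A, 5442 of 5873 in B). It did not pass the test at 21 d (log2 -0.007, adjusted p = 0.983). Proliferation markers summed to 791 and 798 RPKM in subconfluent and to 89.2 and 108 RPKM at 21 d, with 10 of 10 called lower. The part of proliferation in the changes below was not tested. Adipocyte markers summed to 2.86 and 3.27 RPKM in subconfluent cells and to 6.55 and 6.83 RPKM at 21 d. Most of this sum was Cebpa (2.666 and 3.002, then 6.055 and 6.547 RPKM). Of the 4 of 7 tested 2 were called higher (Cebpa and Fabp4) and 1 lower (Pparg, log2 -1.672). The call of Fabp4 rested on 2 counts in subconfluent cells and 19 at 21 d. Blood cell markers summed to between 20.5 and 31.5 RPKM, at 20.5 and 22.0 in subconfluent cells and 27.3 and 28.9 at 21 d. Of the 5 of 9 tested 0 were called, and Lyz2 rose (log2 0.59, adjusted p = 0.017). Most of the sum was Lyz2 (9.81 and 11.7, then 14.4 and 15.3 RPKM) and Itgam (5.00 and 5.28, then 7.86 and 8.22). Ptprc and Hbb-bs were at 0 at every stage. The part of these cell types in the results was not tested. The 24 h replicates stood apart: the SD of log2(A/B) over 16133 genes was 0.674 at 24 h and 0.282 to 0.321 at the other stages. The A/B ratio also followed gene length in the opposite direction there, with a Spearman correlation across genes of -0.411 at 24 h and 0.101 to 0.336 elsewhere, and RPKM was lower in A than in B at 24 h for each of the genes described here except Tgfb1. Libraries of subconfluent, confluent and 24 h cells were made with the same index pair and those of 14 d and 21 d with a different one, so this difference between libraries cannot be told apart from the step from 24 h to 14 d.

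At 21 d against subconfluent cells, 3 of the 10 genes were called higher (Tgfb1, Tgfbr3 and Ltbp4) and 2 lower (Tgfb3 and Ltbp2), beside 27.6% of all genes called. At any fold, 4 rose and 4 fell, beside 50.7% of all genes. The median log2 fold change of the 10 genes was 0.23, beside 0.04 over all genes tested. The F test over the 5 stages passed for 8 of the 10, beside 48.9% of all genes. Tgfbr1 and Tgfbr2, which encode the signalling receptors, did not pass it (adjusted p = 0.181 and 0.463 by edgeR's quasi-likelihood F test). Without the 24 h samples, the F test over the remaining stages passed for 9 of the 10, beside 14107 of 19994 genes tested. The labels do not say whether replicates A and B were separate cultures, and p-values then measure only the spread between these samples, which may be technical.

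**Figure D1:**
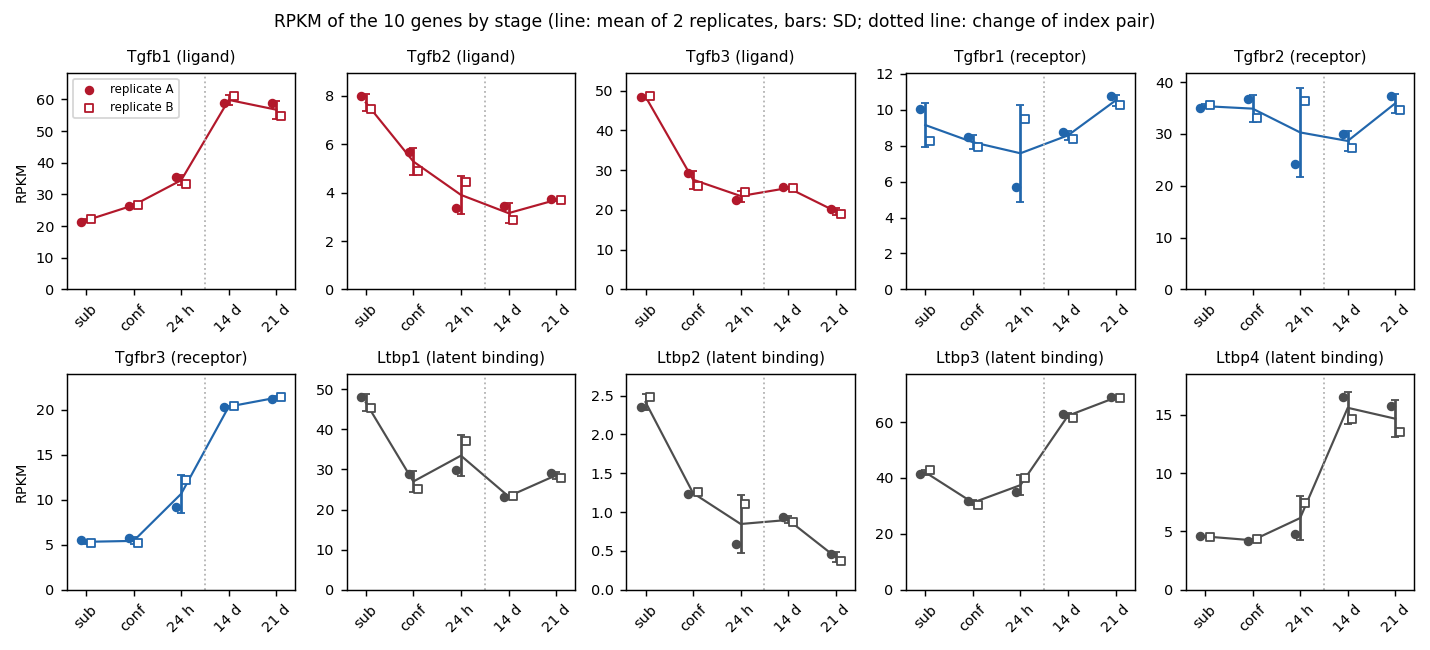
RPKM (vertical axis, from 0) of each of the 10 genes at the 5 stages (horizontal axis). Filled circles are replicate A and open squares replicate B, lines join the means, bars are the SD of 2 replicates, and the dotted line marks the change of index pair. Tgfb1, Tgfbr3, Ltbp3 and Ltbp4 are highest at 14 d and 21 d, Tgfb2, Tgfb3, Ltbp1 and Ltbp2 are highest in subconfluent cells, and the 24 h replicates of Tgfbr1 and Tgfbr2 lie far apart.

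The ligand genes moved in opposite directions. Tgfb1, the isoform most abundant in bone matrix, rose, while Tgfb2 and Tgfb3 fell. The annotation (GENCODE vM21, GRCm38) places Tgfb1 at chr7:25687002-25705077 on the plus strand, Tgfb2 at chr1:186622792-186705989 on the minus strand and Tgfb3 at chr12:86056745-86079041 on the minus strand. The 250 bases before the RefSeq starts of Tgfb1 (chr7:25686752-25687001) and Tgfb2 (chr1:186705990-186706239, minus strand) are printed because these genes moved apart. Each is from RefSeq (GRCm38.p6), 5′ to 3′ on the gene's strand. Capitals mark GC boxes (GGGCGG on either strand) in Tgfb1 and the TATA box (TATAAA) in Tgfb2.
Tgfb1: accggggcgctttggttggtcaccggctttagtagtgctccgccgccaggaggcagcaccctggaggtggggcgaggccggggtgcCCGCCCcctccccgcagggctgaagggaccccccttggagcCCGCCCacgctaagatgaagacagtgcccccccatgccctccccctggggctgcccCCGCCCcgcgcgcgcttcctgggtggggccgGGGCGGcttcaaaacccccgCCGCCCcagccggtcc
Tgfb2: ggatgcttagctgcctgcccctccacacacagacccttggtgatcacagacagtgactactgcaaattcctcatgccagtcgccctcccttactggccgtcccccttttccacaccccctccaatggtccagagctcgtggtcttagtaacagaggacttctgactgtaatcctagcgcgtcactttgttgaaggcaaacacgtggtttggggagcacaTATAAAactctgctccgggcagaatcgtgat

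The window of Tgfb1 held 5 GC boxes and no TATA box, and 75.2% of its bases were G or C. The window of Tgfb2 held no GC box and 1 TATA box, which starts 31 bases before the transcription start, and 53.6% of its bases were G or C. Of 32851 RefSeq windows of the same length, 32.7% held a GC box and 12.4% a TATA box on either strand, and the median GC content was 52.4%. These matches describe the letters of the windows and were not tied to any measurement. Of the 10 genes, 8 had a window in the table, and those without one are Tgfb3 and Tgfbr3.

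Tgfb1 stood at 21.3 and 22.2 RPKM in subconfluent cells (replicates A and B), 26.4 and 26.8 in confluent cells, 35.6 and 33.4 at 24 h, 58.7 and 61.0 at 14 d, and 58.8 and 54.8 at 21 d. The first 3 stages did not overlap with each other or with the last 2, and 14 d and 21 d overlapped. Its log2 fold change at 21 d against subconfluent cells was 1.50 (SE 0.09, adjusted p = 2.1e-05), a 2.83-fold rise. From confluent cells to 14 d it was 1.39 (SE 0.09, adjusted p = 9.6e-05), beside 13% of all genes called (9.15% higher and 3.85% lower). The larger part of the rise came between 24 h and 14 d, at 0.92 (SE 0.09, adjusted p = 0.0012, and 0.103 with only these 2 groups in the fit), the step at which the index pair changed. The earlier step from confluent cells to 24 h was smaller, at 0.47 (SE 0.09, adjusted p = 0.034). This last call was lost when any 1 of the 8 libraries other than those of 24 h was left out, with adjusted p from 0.0763 to 0.186, with only these 2 groups in the fit (adjusted p = 0.484), with library size alone (0.0674) and with no filter (0.0638).

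Tgfb3 was the most abundant of the 3 ligand RNAs in subconfluent cells, and Tgfb1 was so at 21 d. Tgfb3 RPKM was 48.4 and 48.6 in subconfluent cells, 29.2 and 26.0 in confluent cells, 22.5 and 24.5 at 24 h, 25.7 and 25.4 at 14 d, and 20.2 and 19.0 at 21 d. Every later sample lay below both subconfluent samples, and those of 21 d were the lowest. The log2 fold change at 21 d against subconfluent cells was -1.19 (SE 0.08, adjusted p = 3.0e-05), a 2.28-fold fall. Most of this was already present at confluence, where Tgfb3 fell by 0.84 on the log2 scale (SE 0.08, adjusted p = 0.0029). From 14 d to 21 d it fell by 0.46 on the log2 scale (SE 0.08, adjusted p = 0.014). The adjusted p of this last step passed 0.05 when either subconfluent replicate was left out (0.0544 without A, 0.0541 without B), or any 1 of the 4 libraries of 14 d and 21 d (0.0859 to 0.132), and with scaling by library size alone (0.0952).

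Tgfb2, the isoform that binds the type II receptor poorly unless a co-receptor is present, was the least abundant ligand at every stage. Its RPKM was 7.98 and 7.47 in subconfluent cells, 5.68 and 4.90 in confluent cells, 3.36 and 4.46 at 24 h, 3.44 and 2.86 at 14 d, and 3.73 and 3.68 at 21 d. Both subconfluent samples lay above all others, and the samples of 24 h overlapped with those of 14 d and of 21 d. At 21 d Tgfb2 had fallen by 0.95 on the log2 scale (SE 0.14, adjusted p = 0.0010), just short of 2-fold. Without the subconfluent replicate B the log2 value was -1.03, past 2-fold. It was also past 2-fold with library size alone and with limma-trend on log2(RPKM + 0.1). From confluent cells to 14 d it fell by 0.53 on the log2 scale (SE 0.14, adjusted p = 0.023). This call was lost without the confluent replicate A (adjusted p = 0.134), the 14 d replicate A (0.0513) or the 14 d replicate B (0.153).

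The make-up of the ligand RNA turned over, while its sum of RPKM at 21 d lay around that of subconfluent cells. That likeness of sums depends on the gene lengths used, as the length of Tgfb1 (2551 bases) was below its merged exon length (5042). Sums with other lengths were not made. The 3 ligands together summed to 77.8 and 78.2 RPKM in subconfluent cells, 61.3 and 57.7 in confluent cells, 61.5 and 62.3 at 24 h, 87.8 and 89.2 at 14 d, and 82.7 and 77.5 at 21 d, where they overlapped with subconfluent cells. Tgfb1 took 27.9% ± 0.64 (SD, n = 2) of this sum in subconfluent cells, 44.8% ± 2.37 in confluent cells, 55.7% ± 3.06 at 24 h, 67.6% ± 1.03 at 14 d and 70.9% ± 0.28 at 21 d. Tgfb3 took 62.2% ± 0.14, 46.4% ± 1.82, 38.0% ± 1.87, 28.8% ± 0.53 and 24.5% ± 0.11 at the same stages. No 2 stages overlapped in either share. Tgfb2 fell from 9.91% ± 0.50 to 4.63% ± 0.17 of the sum. The stages differed in all 3 shares by an exact permutation test of the F statistic over the 945 ways to put 10 samples into 5 pairs (p = 0.00106 for each, the smallest it can give, adjusted p = 0.0026 over 10 shares). Among the first 3 stages alone, which share an index pair, the Tgfb1 share already differed by 27.8 percentage points between subconfluent cells and 24 h. The 6 samples of these stages allow no exact permutation p below 0.0667, which all 3 ligand shares reached.

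**Figure D2:**
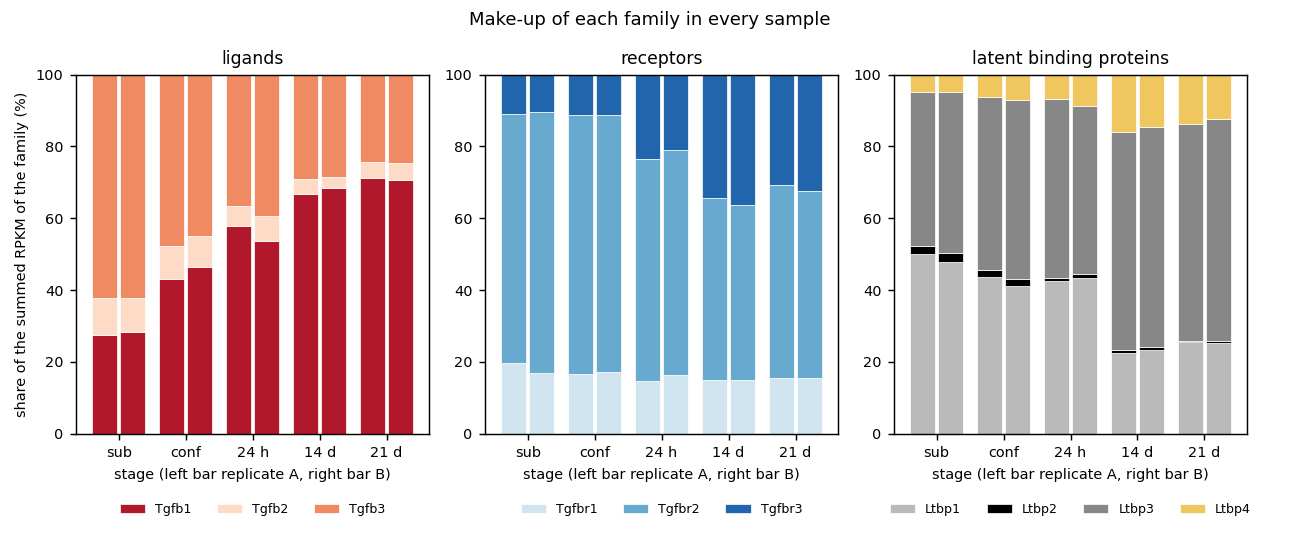
Share of each gene in the summed RPKM of its family (vertical axis, percent) for every sample (horizontal axis, stages in order, left bar replicate A and right bar replicate B), in panels for ligands, receptors and latent binding proteins. Tgfb1 grows from 27.9% to 70.9% of the ligand sum, Tgfbr3 from 10.7% to 31.5% of the receptor sum and Ltbp4 from 4.78% to 13.0% of the latent binding protein sum, as means of subconfluent cells and 21 d.

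Among the receptors, the co-receptor rose and the signalling receptors showed no change that passed the test with all 10 samples. Tgfbr3 (chr5:107106570-107289629, minus strand) encodes betaglycan, which binds all TGF-beta isoforms without a kinase of its own and presents TGF-beta2 to the type II receptor. It stood at 5.49 and 5.14 RPKM in subconfluent cells, 5.69 and 5.16 in confluent cells, 9.17 and 12.1 at 24 h, 20.3 and 20.4 at 14 d, and 21.2 and 21.4 at 21 d. Subconfluent and confluent cells overlapped, and each later stage lay above the one before. At 21 d the log2 fold change against subconfluent cells was 2.12 (SE 0.12, adjusted p = 1.3e-05), a 4.35-fold rise and the largest rise among the 10 genes.

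The rise of Tgfbr3 came in a pair of steps of like size. It was the gene called higher at 24 h against confluent cells, the other 9 not being called, beside 2.13% of all genes (1.76% called higher and 0.365% lower), with a log2 fold change of 1.06 (SE 0.11, adjusted p = 0.0043). From 24 h to 14 d, 2 of the 10 genes were called higher, Tgfbr3 and Ltbp4, beside 5.98% of all genes (4.47% called higher and 1.51% lower). The log2 fold change of Tgfbr3 was 1.07 there (SE 0.11, adjusted p = 0.0014). With only the 2 groups of each comparison in the fit, the adjusted p values were 0.241 and 0.0927. Without the 24 h replicate A, the second step of Tgfbr3 was no longer past 2-fold (log2 0.92), and that of Tgfb1 was (log2 1.02). The 24 h value was just below 2-fold without the confluent replicate B (log2 0.99, adjusted p = 0.0464) and without the 24 h replicate B (log2 0.92, adjusted p = 3.4e-04).

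Tgfbr2 (chr9:116084293-116175360, minus strand) encodes the type II receptor, the kinase that binds ligand first. Its RPKM was 35.1 and 35.7 in subconfluent cells, 36.7 and 33.1 in confluent cells, 24.2 and 36.4 at 24 h, 30.1 and 27.2 at 14 d, and 37.2 and 34.6 at 21 d. Subconfluent cells and 21 d overlapped, with a log2 fold change of 0.14 (SE 0.15, adjusted p = 0.493). Scaling by library size alone turned its sign, to -0.019. Tgfbr1 (chr4:47353222-47414931, plus strand), the type I receptor that phosphorylates Smad2 and Smad3, stood at 10.0 and 8.29 RPKM in subconfluent cells, 8.47 and 7.92 in confluent cells, 5.68 and 9.48 at 24 h, 8.76 and 8.40 at 14 d, and 10.7 and 10.3 at 21 d. Both 21 d samples lay above both subconfluent samples, by a log2 fold change of 0.32 (SE 0.19, adjusted p = 0.215). The adjusted p depended on the 24 h libraries, which enter the estimate of the spread, while the log2 fold change hardly moved. Without them the log2 fold change was 0.31 with an adjusted p of 0.0180. It was 0.31 without the 24 h replicate A and 0.30 without the 24 h replicate B. With only the 2 groups compared in the fit, the adjusted p was also under 0.05.

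The receptor RNA held a larger share of co-receptor late in the culture. Tgfbr3 took 10.7% ± 0.27 (SD, n = 2) of the receptor sum in subconfluent cells, 11.2% ± 0.02 in confluent cells, 22.2% ± 1.82 at 24 h, 35.4% ± 1.52 at 14 d and 31.5% ± 1.18 at 21 d. Tgfbr2 took 71.0% ± 2.34 in subconfluent cells and 53.0% ± 1.17 at 21 d. The stages differed in the share of Tgfbr3 (exact permutation p = 0.00106, adjusted p = 0.0026) and of Tgfbr2 (exact permutation p = 0.0032, adjusted p = 0.0040). The share of Tgfbr1 was 18.3% ± 2.07 in subconfluent cells and 15.5% ± 0.01 at 21 d (exact permutation p = 0.0656). Summed receptor RPKM was 50.6 and 49.1 in subconfluent cells and 69.2 and 66.3 at 21 d, without overlap. At 24 h it was 39.0 in replicate A and 58.0 in replicate B, so that stage spanned both subconfluent and confluent cells.

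The latent binding proteins also split into falling and rising members. Ltbp1, which anchors the latent complex of TGF-beta through its propeptide, and Ltbp2, which does not bind latent TGF-beta and takes part in microfibrils, fell. Ltbp3, needed for normal bone and tooth growth, and Ltbp4, which binds latent TGF-beta1 and supports elastic fibres, rose. Ltbp1 lies at chr17:75005568-75392512 (plus), Ltbp2 at chr12:84783212-84876532 (minus), Ltbp3 at chr19:5740904-5758532 (plus) and Ltbp4 at chr7:27305136-27337692 (minus). The windows of 250 bases before the RefSeq starts of Ltbp1 (chr17:75005279-75005528) and Ltbp3 (chr19:5740650-5740899), on the plus strand of GRCm38.p6, are printed as the falling and the rising member of highest level. Capitals mark the cyclic AMP response element (CRE, TGACGTCA), and Ltbp3 has no motif in capitals.
Ltbp1: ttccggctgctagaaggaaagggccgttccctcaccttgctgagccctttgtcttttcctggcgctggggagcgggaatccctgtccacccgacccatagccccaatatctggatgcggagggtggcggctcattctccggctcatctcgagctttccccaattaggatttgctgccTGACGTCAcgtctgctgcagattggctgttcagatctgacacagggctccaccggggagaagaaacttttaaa
Ltbp3: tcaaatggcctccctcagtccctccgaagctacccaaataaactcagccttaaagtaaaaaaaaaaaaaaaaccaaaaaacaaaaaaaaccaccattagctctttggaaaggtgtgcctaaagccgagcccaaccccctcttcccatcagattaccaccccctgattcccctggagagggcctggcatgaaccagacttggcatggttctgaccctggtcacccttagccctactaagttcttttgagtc

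The CRE of Ltbp1 starts 73 bases before the RefSeq start, and 1.55% of all windows held one. The window of Ltbp3 had a GC content of 47.2% and that of Ltbp1 56.8%. Searches on both strands for an AP-1 site (TGANTCA, in 6.75% of all windows), a RUNX site (TGTGGT, 14%) and a Smad palindrome (GTCTAGAC, 0.167%) found none of these letters in the windows of the 8 genes. GC boxes were found in the windows of Tgfbr1 (2), Ltbp2 (2) and Ltbp4 (3), and none of the motifs in that of Tgfbr2.

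Ltbp1 RPKM was 48.1 and 45.3 in subconfluent cells, 28.8 and 25.1 in confluent cells, 29.8 and 37.1 at 24 h, 23.2 and 23.4 at 14 d, and 29.1 and 27.97 at 21 d. Both subconfluent samples lay above all others. At confluence Ltbp1 fell by 0.82 on the log2 scale (SE 0.11, adjusted p = 0.011). That call was lost without the subconfluent replicate A (adjusted p = 0.0932), the subconfluent replicate B (0.063) or the confluent replicate B (0.109). At 21 d it was lower than in subconfluent cells by a log2 fold change of -0.59 (SE 0.11, adjusted p = 0.0034). From confluent cells to 14 d the TMM-scaled log2 value was 0.00 (0.0037, adjusted p = 0.986) although both 14 d RPKM values lay below both confluent ones.

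Ltbp2 was the least abundant of the 10 genes at every stage, at 2.35 and 2.49 RPKM in subconfluent cells, 1.23 and 1.26 in confluent cells, 0.584 and 1.11 at 24 h, 0.930 and 0.868 at 14 d, and 0.464 and 0.372 at 21 d. Its lowest samples were those of 21 d, apart from every other stage. The log2 fold change at 21 d against subconfluent cells was -2.42 (SE 0.26, adjusted p = 2.4e-04), a 5.35-fold fall. With limma-trend on log2(RPKM + 1), a scale that understates changes of low genes, the log2 value was -1.27 (adjusted p = 2.5e-04). From 14 d to 21 d it was the 1 gene of the 10 called lower, beside 3.97% of all genes (1.52% called higher and 2.45% lower), by a log2 fold change of -1.18 (SE 0.25, adjusted p = 0.029). Leaving out any 1 of the 8 libraries other than those of 24 h ended this last call, with adjusted p from 0.0586 to 0.199.

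Ltbp3 was the most abundant of the 10 at 14 d and 21 d. Its RPKM was 41.4 and 42.7 in subconfluent cells, 31.9 and 30.4 in confluent cells, 34.8 and 40.0 at 24 h, 62.9 and 61.6 at 14 d, and 69.1 and 68.5 at 21 d. No 2 stages overlapped, and confluent cells were the lowest. From confluent cells to 14 d the log2 fold change was 1.22 (SE 0.08, adjusted p = 9.5e-05), and at 21 d against subconfluent cells 0.83 (SE 0.08, adjusted p = 1.5e-04). From 24 h to 14 d it rose by 0.86 on the log2 scale (SE 0.08, adjusted p = 9.2e-04, and 0.114 with only these 2 groups in the fit). Its fall at confluence, of -0.46 (SE 0.08, adjusted p = 0.030), was lost without any 1 of the 8 libraries other than those of 24 h, with adjusted p from 0.0868 to 0.228, with library size alone (0.0987) and with no filter (0.0765). Whether counting used strand is not given in the sources used here.

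Ltbp4 RPKM was 4.59 and 4.55 in subconfluent cells, 4.15 and 4.33 in confluent cells, 4.82 and 7.48 at 24 h, 16.6 and 14.7 at 14 d, and 15.8 and 13.5 at 21 d. The samples of 14 d and 21 d overlapped with each other and lay above all earlier ones. Its log2 fold change was 2.09 from confluent cells to 14 d (SE 0.17, adjusted p = 2.3e-04) and 1.80 at 21 d against subconfluent cells (SE 0.17, adjusted p = 1.3e-04), a 3.48-fold rise. The step from 24 h to 14 d carried most of it, at 1.48 (SE 0.17, adjusted p = 0.0021, and 0.0883 with only these 2 groups in the fit).

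Ltbp1 gave way to Ltbp3 as the largest share of latent binding protein RNA. Ltbp1 took 48.8% ± 1.59 (SD, n = 2) of the sum in subconfluent cells, 42.4% ± 1.80 in confluent cells, 42.9% ± 0.54 at 24 h, 22.8% ± 0.62 at 14 d and 25.4% ± 0.07 at 21 d. Ltbp3 took 43.9% ± 1.43, 49.0% ± 1.10, 48.2% ± 2.17, 61.0% ± 0.41 and 61.2% ± 1.21. The shares of Ltbp4 were 4.78% ± 0.03 in subconfluent cells and 13.0% ± 1.09 at 21 d, and those of Ltbp2 2.53% ± 0.13 and 0.371% ± 0.049. Stages differed in all 4 shares by the exact permutation test (p = 0.0032 for Ltbp1 and Ltbp2, 0.0085 for Ltbp3 and 0.0021 for Ltbp4, adjusted p = 0.0094 or lower). Among the first 3 stages the Ltbp1 share differed by -5.88 percentage points between subconfluent cells and 24 h (exact permutation p = 0.20, where 0.0667 is the smallest possible). The larger step, from 42.9% at 24 h to 22.8% at 14 d, came where the index pair changed. By read counts with no length correction, Ltbp1 took 64.0% in subconfluent cells and 39.2% at 21 d, and Ltbp3 29.4% and 48.1%.

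**Figure D3:**
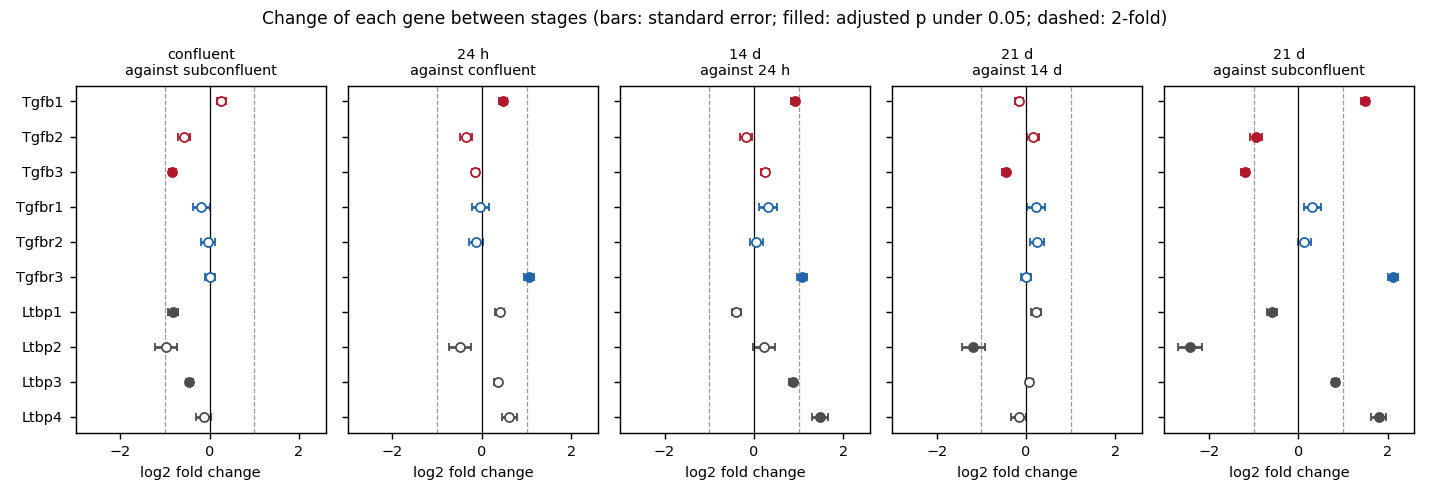
Log2 fold change (horizontal axis) of each of the 10 genes (vertical axis) in the 4 successive steps and in 21 d against subconfluent cells, with the standard error as bars. Filled points have an adjusted p under 0.05 by edgeR's quasi-likelihood test, dashed lines mark 2-fold. Tgfb3 and Ltbp1 fall at confluence, Tgfbr3 rises in both steps from confluence to 14 d, and Tgfb1, Ltbp3 and Ltbp4 rise from 24 h to 14 d.

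The steps differed in which genes passed the test. At confluence 0 of the 10 genes were called at 2-fold by edgeR's quasi-likelihood test, beside 1.43% of all genes (1% called higher and 0.423% lower). At any fold 3 fell there (Tgfb3, Ltbp1 and Ltbp3) and 0 rose, beside 3.28% of all genes. In that comparison Tgfb1, Tgfb2 and Ltbp2 passed an unadjusted p under 0.05 without passing the adjusted one, and DESeq2 and limma-trend also called 0 of the 10 at 2-fold. At 24 h against confluent cells 2 rose at any fold (Tgfb1 and Tgfbr3) and 0 fell, beside 5.15% of all genes. From 24 h to 14 d 4 rose (Tgfb1, Tgfbr3, Ltbp3 and Ltbp4) and 0 fell, beside 17.3%, and from 14 d to 21 d 2 fell (Tgfb3 and Ltbp2) and 0 rose, beside 9.72%. From confluent cells to 14 d the called genes were Tgfb1, Tgfbr3, Ltbp3 and Ltbp4, all higher, and with Tgfb2, which fell, 5 of the 10 passed at any fold, beside 32.1% of all genes. The comparisons share stages with each other, and their values are given side by side for that reason.

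The order of levels changed accordingly. In subconfluent cells it ran Tgfb3, Ltbp1, Ltbp3, Tgfbr2, Tgfb1, Tgfbr1, Tgfb2, Tgfbr3, Ltbp4 and Ltbp2 from high to low RPKM, and no neighbours overlapped. At 21 d it ran Ltbp3, Tgfb1, Tgfbr2, Ltbp1, Tgfbr3, Tgfb3, Ltbp4, Tgfbr1, Tgfb2 and Ltbp2, again without overlap. In confluent cells Tgfb3, Ltbp1 and Tgfb1 overlapped with each neighbour, as did Tgfbr3 and Tgfb2. At 24 h neighbours overlapped among the upper 5 genes, Ltbp3, Tgfb1, Ltbp1, Tgfbr2 and Tgfb3, as did Tgfbr3, Tgfbr1 and Ltbp4.

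The genes around these 10 in the pathway were read in 4 lists at 21 d against subconfluent cells. Of the genes that anchor latent TGF-beta or release it, 22 of 24 were tested, and 8 were called higher and 1 lower, with a median log2 fold change of 0.30 beside 0.04 over all genes. All genes gave 16.3% called higher and 11.3% called lower. Mmp13, a collagenase that can release matrix-bound TGF-beta, stood at 9.73 and 8.59 RPKM in subconfluent cells and 83.8 and 98.1 at 21 d (log2 3.43, SE 0.15, adjusted p = 5.5e-06). Htra1, a secreted serine protease, stood at 6.24 and 4.93 RPKM and later 78.5 and 85.6 (log2 3.99, SE 0.15, adjusted p = 3.7e-06). Neither gene overlapped between these stages. Lrrc32, which encodes the cell surface anchor GARP, had 2 counts in subconfluent cells and 191 at 21 d, a ratio per total count of 108 with a 95% interval of 29.5 to 899 for counting error only. Itgav, the alpha subunit of the integrins that release latent TGF-beta, fell from 31.5 and 28.6 RPKM to 10.5 and 9.96 (log2 -1.44, SE 0.35, adjusted p = 0.011). Beta subunits that pair with it did not all move alike, and are named after their values were seen. Itgb8, at low levels (0.16 and 0.13 RPKM, then 0.94 and 0.72), was called higher (log2 2.64, SE 0.27, adjusted p = 1.7e-04). Itgb3 was also called higher (log2 1.35, SE 0.11, adjusted p = 6.7e-05), and Itgb5 rose (log2 0.86, SE 0.09, adjusted p = 2.5e-04). Itgb1 did not pass the test (276.5 and 272.6 RPKM, then 228.1 and 217.6, log2 -0.18, SE 0.12, adjusted p = 0.237). Itgb6 was not tested, at 0.0125 RPKM or less in every sample.

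**Figure D4:**
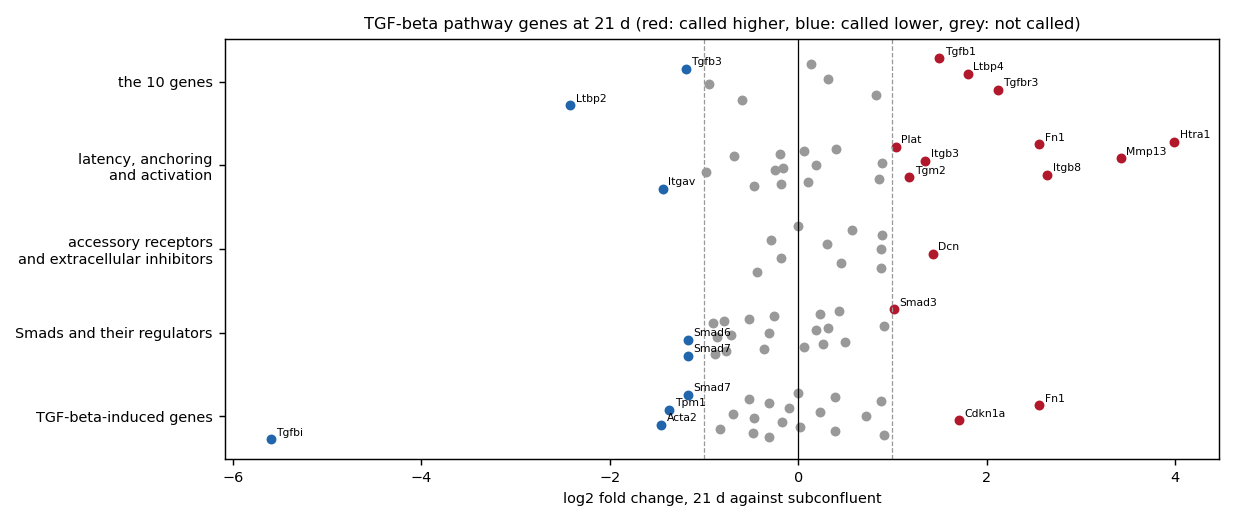
Log2 fold change at 21 d against subconfluent cells (horizontal axis) of the 10 genes and of the tested genes of 4 pathway lists (vertical axis, points spread within a list for legibility). Red points are called higher and blue points lower at an adjusted p under 0.05 and more than 2-fold, grey points are not called, and genes with 3 or fewer subconfluent counts (Lrrc32 among those tested) are not drawn. Mmp13 and Htra1 of the anchoring and release list lie farthest to the right, and Tgfbi lies farthest to the left, at -5.60.

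Of the accessory receptors and extracellular inhibitors, 11 of 13 were tested, and 1 was called higher and 0 lower, beside 16.3% and 11.3% of all genes. The median was 0.45, and 5 rose and 0 fell at any fold, beside 50.7% of all genes passing at any fold. The called gene was Dcn, which encodes decorin, a proteoglycan that binds TGF-beta. It stood at 70.8 and 71.5 RPKM in subconfluent cells, 289 and 306 at 24 h, and 171 and 182 at 21 d, so its highest samples were those of 24 h. Its log2 fold change at 21 d was 1.42 (SE 0.08, adjusted p = 1.6e-05).

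Of the Smads and their regulators, 21 of 21 were tested, and 1 was called higher and 2 lower, beside 16.3% and 11.3% of all genes. The median was -0.31, and 4 rose and 9 fell at any fold, beside 50.7% of all genes passing at any fold. Smad7, which encodes an inhibitory Smad of TGF-beta signalling, fell from 7.25 and 8.38 RPKM to 3.28 and 3.12 (log2 -1.17, SE 0.10, adjusted p = 7.3e-05). Smad6, the inhibitory Smad of BMP signalling, fell from 16.8 and 20.2 RPKM to 7.59 and 7.56 (log2 -1.17, SE 0.12, adjusted p = 1.8e-04). Smad3, a transducer of TGF-beta signals, rose from 10.2 and 9.90 RPKM to 19.7 and 17.7 (log2 1.01, SE 0.16, adjusted p = 0.0015), at the edge of 2-fold.

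Of the genes known as TGF-beta-induced in other cells, 23 of 24 were tested, and 2 were called higher and 4 lower, beside 16.3% and 11.3% of all genes. The median was -0.18, and 6 rose and 8 fell at any fold, beside 50.7% of all genes passing at any fold. Tgfbi, a matrix protein named for its induction by TGF-beta, stood at 33.2 and 32.6 RPKM in subconfluent cells, 6.77 and 6.46 at 24 h, 1.04 and 0.854 at 14 d, and 0.483 and 0.742 at 21 d. Its log2 fold change of -5.60 (SE 0.23, adjusted p = 4.4e-06) was opposite in sign to that of Tgfb1. Acta2, smooth muscle actin, fell from 1401 and 1433 RPKM to 469 and 485 (log2 -1.45, SE 0.13, adjusted p = 9.9e-05). Tpm1, tropomyosin, fell from 373 and 375 RPKM to 136 and 132 (log2 -1.37, SE 0.10, adjusted p = 3.9e-05). Fn1, the fibronectin to which latent binding proteins attach, rose from 486 and 488 RPKM to 2816 and 2480 (log2 2.56, SE 0.31, adjusted p = 4.4e-04). Cdkn1a, a cell cycle inhibitor, rose from 74.1 and 77.8 RPKM to 225 and 232 (log2 1.71, SE 0.10, adjusted p = 1.7e-05). Fn1, Smad7, Skil, Pmepa1, Tgif1 and Bambi each stand in 2 of the 4 lists.

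Among 11992 genes averaging 5 or more CPM (counts scaled to the library size), those whose log2 CPM followed each of the 10 most closely over the 10 samples are given as a description, since these samples are pairs from 5 stages and share their depth and libraries. For the rising genes, Tgfb1 was followed by Slc36a2 and Mapre3, Tgfbr3 by Gpr162, Ltbp3 by Apln and Pim1, and Ltbp4 by Creb3l1 and AI480526. For the falling genes, Tgfb2 was followed by Slc39a6 and Jag1, Tgfb3 by Fam129b and Sdcbp, Ltbp1 by Trim35 and Zc2hc1a, and Ltbp2 by Tjap1 and Smc4. Tgfbr1 was followed by Efcab14 and Clip1, and Tgfbr2 by Brd2 and Zyg11b. Pearson's r ran from 0.947 for Ltbp1 with Zc2hc1a to 0.996 for Tgfb1 with Slc36a2 among the pairs named. On the scale of log2(RPKM + 1), Slc36a2 was not among the 50 genes closest to Tgfb1.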

How the data were processed

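RNA from MC3T3-E1 cells was sequenced by the authors as 51 bp paired-end reads. The submitters' processing notes list TopHat2 2.0.9, R 3.0.1, FastQC and mm10, while the counting tool and annotation are not given in the sources used here. The authors deposited whole-number read counts per gene without normalization, and RPKM values made from them with gene lengths and a read number per sample (the summed counts were 1.44 to 1.60 times this number). The merged column was used for the 2 samples sequenced in 2 lanes.

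Identifiers were matched to GENCODE vM21 (39547 of 40620 had a symbol). For the tests, edgeR 4.0.16 (R 4.3.3) was run on the counts: filterByExpr (20808 genes kept), TMM, 5 groups, quasi-likelihood tests and Benjamini-Hochberg adjustment, with calls at an adjusted p under 0.05 and more than 2-fold. The SE was taken as the size of a log2 fold change over the root of its F statistic. The code was tested on simulated data. Shares of summed RPKM were compared by exact permutation tests, adjusted over 10 shares. Deviations of replicates of the same letter correlated at -0.332 to 0.321 between stages, so the letters were not taken as pairs. The members and lists were chosen with earlier results of these data known. Besides the 10 genes, up to 3 largest called rises and falls of each pathway list and the 2 most correlated genes (log2 CPM, prior count 2, mean at least 5 CPM) were named, of which 1 is not reported here. Alternatives used DESeq2 1.42.0 and limma 3.58.1.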

Additional observations from a re-analysis of the deposited data

How the results depend on the processing

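For the 8 genes past an adjusted p of 0.05 at 21 d against subconfluent cells, 168 of 168 values under 21 alternatives kept their direction and their side of the threshold, although that of Ltbp2 was -1.27 with limma-trend at a pseudocount of 1 RPKM in place of -2.42. Counts of called genes moved by over 1.5 times as follows, and the cause was not tested. At 24 h against confluent cells the count of 1 was 0 with library size alone, with limma-trend at a pseudocount of 1 or of 0.1 RPKM, and with only the 2 groups compared, and 0 to 1 when leaving out each library. From 24 h to 14 d the count of 2 was 1 with library size alone, with no filter and with both limma fits, 0 with only the 2 groups compared, and 2 when leaving out any library (Ltbp4 and Tgfb1 in place of Tgfbr3 without the 24 h replicate A). From 14 d to 21 d the count of 1 was 0 with library size alone, with both limma fits and with the replicate block, and 0 to 1 when leaving out each library. At any fold the counts were 3 (confluent against subconfluent), 2 (24 h), 4 (24 h to 14 d), 2 (14 d to 21 d) and 8 (21 d against subconfluent). Past 4-fold they were 0 at 24 h, 0 from 24 h to 14 d and 0 from 14 d to 21 d. They were 2 in 14 d against confluent cells (beside 1121 of 20808 genes) and 2 in 21 d against subconfluent cells (beside 2354 of 20808 genes). For 21 d against subconfluent cells the count of 5 was 6, with Tgfb2 in addition, with library size alone and with limma-trend at a pseudocount of 0.1 RPKM. In the pathway lists, the genes of anchoring and release called higher were 3 with limma-trend on log2(RPKM + 1) in place of 8, and those called lower 2 with DESeq2 size factors, library size alone or DESeq2 and 3 at any fold in place of 1. The accessory genes higher were 5 at any fold. The Smads and regulators higher were 0 with DESeq2 size factors, library size alone, no filter, DESeq2 or limma, and 4 at any fold, and those lower 5 with library size alone and 9 at any fold. The TGF-beta-induced genes were 6 higher and 8 lower at any fold. The Tgfbr1 share moved by -4.55 percentage points by counts (adjusted p = 0.0212), beside -2.82 by RPKM.

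Signs turned for genes that had not passed the test. In 14 d against confluent cells, Tgfb3 (log2 0.10) was -0.13 with library size alone, -0.11 with limma-trend at either pseudocount, and Tgfbr2 (-0.07) ran from -0.14 to 0.0012 when leaving out each library, turning without the confluent replicate A. Ltbp1 (0.0037) turned in 14 of 21 alternatives: -0.014 with DESeq2 size factors, -0.23 with library size alone, -0.063 with no filter, -0.018 with DESeq2, -0.20 and -0.21 with limma (pseudocounts 1 and 0.1), -0.015 without the 24 h samples, -0.0095 with only the 2 groups compared, and -0.094 to 0.099 when leaving out each library. In 21 d against subconfluent cells Tgfbr2 was -0.019 with library size alone. That scaling moved the median of all genes to -0.20 in 14 d against confluent cells and to -0.12 in 21 d against subconfluent cells. The replicate letter as a block ended the calls of Ltbp2 from 14 d to 21 d (adjusted p = 0.0543), Ltbp3 at confluence (0.0785) and Tgfb1 at 24 h (0.0763), and changed no other call of the 10 genes. With 2 samples a stage the spread rests on the fit across stages. The 24 h replicates limit both steps that touch that stage.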
